A study of Mus musculus with 3 samples.

Results

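The genes described here are Myc, its obligate partner Max, and 5 genes whose proteins compete with MYC for MAX: Mxd1, Mxd4, Mxi1, Mnt and Mga. They were chosen by name, and all 7 were found among the 55536 annotated genes of the gene tables. RNA was taken from the chromatin fraction of macrophages grown from bone marrow of C57BL/6J mice and treated with lipid A, the part of bacterial lipopolysaccharide that TLR4 binds, at 100 ng/ml for 15 min. All 3 libraries belong to this 1 treated group and no untreated library was analysed here, so the values are levels at this time and not changes. No transgene or deletion is named in the labels, and age and sex are given as not collected. The replicates have separate sample labels but 1 donor label, so the spread between them may be smaller than the spread between animals.

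MYC is a transcription factor that binds DNA only when paired with MAX, chiefly at the E-box, and is known for raising transcription of genes for growth, ribosome production and metabolism. MXD1, MXI1, MXD4 and MNT also pair with MAX and bind the same boxes, but bring SIN3 and histone deacetylases and lower transcription. MGA is a large MAX partner that carries an additional T-box domain and belongs to the Polycomb complex PRC1.6. In macrophages MYC is known as a regulator of proliferation and metabolism. Chromatin-bound RNA is rich in transcripts that are still being made or spliced, so a level here need not match the mRNA in the cytoplasm.

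The totals of expected counts were 10974934, 21376404 and 14376665 for replicates 1 to 3, and 1 µg, 250 ng and 500 ng of RNA went into them. Levels are in TPM (transcripts per 1000000), which allows genes of different length to be compared. Protein-coding genes took 23.9%, 16.7% and 25.3% of all TPM, and the non-coding RNA Gm26917 took 4.22%, 18.8% and 9.25% of the counts. Replicate 2 was lowest in the former and highest in the latter, so libraries were compared after scaling TPM to a sum of 1000000 over protein-coding genes. All 10 macrophage markers reached 1 TPM in every library, with summed levels of 1030 to 1506 TPM. None of 26 markers of T and NK cells, B cells, neutrophils, stromal and endothelial cells or erythroid cells did, and each of these 5 lists summed to at most 1.29 TPM. In the second deposited quantification of the same libraries 4 of the 26 did reach 1 TPM in all libraries: Cd3d, Cd8a, Col1a1 and Pecam1, the highest being the T cell gene Cd3d at 16.7, 11.5 and 20.2 TPM. The tables thus disagree on these 4 genes. All 6 proliferation markers reached 1 TPM in every library of the gene table, with summed levels of 42.3 to 66.2 TPM.

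E-boxes near the members' start sites are shown because this box is where the network's own proteins bind. The RefSeq promoter table (GRCm38.p6) held 8 windows for 6 of the 7 members, Myc being the one without an entry, and each window runs from 250 bases before the start site to 50 after it. CACGTG, which reads the same on both strands, was found in 3 of the 8 windows, those of Mxd4, Mnt and Max, and in 7.15% of all 32851 windows. The E-box is in capitals with 12 bases on either side, written 5′ to 3′ on the gene's strand.
Mxd4: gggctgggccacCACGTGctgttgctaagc
Mnt: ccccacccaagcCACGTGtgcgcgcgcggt
Max: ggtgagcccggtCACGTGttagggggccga
The Mxd4 stretch is at chr5:34187912-34187941 on the minus strand, and its box begins 219 bases before the start site. In Mnt the stretch is at chr11:74830789-74830818 on the plus strand and the box begins 123 bases before the start site. The Max box begins 3 bases before the start site, in the stretch chr12:76962234-76962263 on the minus strand. TGACGTCA, the CREB site, and TGACTCA, the AP-1 site, were each searched on both strands and were in 0 of the 8 member windows, against 1.79% and 5.20% of all windows. A match is a match of letters, and binding was not measured.

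All 7 members were detected: 7 of 7 had at least 1 TPM in all 3 libraries, a mark that 42.4% of the 22028 protein-coding genes reached. The members' mean levels ran from 2.67 TPM for Myc to 65.0 TPM for Mxd1, with a median of 12.5 TPM. Among the 9345 protein-coding genes that reached the mark, the median was 10.2 TPM. In bulk RNA, fewer cells making a transcript and less RNA per cell cannot be told apart.

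Myc itself was the lowest of the 7 in every library. Its gene lies at chr15:61985391-61990374 on the plus strand, and it had 2.80, 1.96 and 3.26 TPM in replicates 1, 2 and 3, or 2.67 ± 0.659 TPM (SD, n = 3). This put Myc at percentile 10.4 of the detected protein-coding genes. The counts behind these values were 55, 95 and 88, with exact Poisson 95% intervals of 41.4 to 71.6, 76.9 to 116 and 70.6 to 108, which cover counting error only. The TPM also depends on how reads were divided among models. The short model Myc-203, of 381 bases, held 0.81, 0.43 and 0.44 TPM from only 2, 2 and 1 counts. A count of 3, taken as the floor, would be worth 0.153, 0.0620 and 0.111 TPM, so Myc stood well above it in each library.

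Max, the shared partner of every other member, stood far above Myc. The gene is at chr12:76937269-76962201 on the minus strand and had 51.01, 23.84 and 52.97 TPM, a mean of 42.6 ± 16.3 TPM (SD, n = 3). On the log2(TPM + 1) scale Max exceeded Myc by 3.77, 3.07 and 3.66 in the 3 libraries. The TPM ratio of Max to Myc was 18.2, 12.2 and 16.2. The TPM of Max rests on short transcript models: its effective length in the gene tables was 694 to 747 bases, and its counts were 518, 524 and 610. Its coding models Max-202 and Max-201 had means of only 5.71 and 3.30 TPM.

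The 4 genes of the MXD and MNT repressors covered a wide span. Mxd1, which is known to rise when myeloid cells leave the cell cycle and mature, lies at chr6:86647042-86669161 on the minus strand. It had 123, 17.3 and 54.4 TPM, a mean of 65.0 ± 53.8 TPM (SD, n = 3), the highest mean of the network and the least even one. Without replicate 1 its mean was 35.8 TPM. Mxd4, at chr5:34173883-34187720 on the minus strand, had 13.39, 7.61 and 16.48 TPM, or 12.5 ± 4.50 TPM (SD, n = 3).

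Mnt is the repressor known for being expressed in most cell types, dividing or not. From chr11:74830920-74845725 on the plus strand it gave 10.71, 8.73 and 13.71 TPM, or 11.05 ± 2.51 TPM (SD, n = 3). Mxi1, also called Mxd2, lies at chr19:53310518-53375810 on the plus strand and had 6.21, 3.12 and 5.46 TPM, or 4.93 ± 1.61 TPM (SD, n = 3). The lowest Mxi1 value was thus close to the highest Myc value, but within each library Mxi1 was above Myc. Mga, at chr2:119897228-119969581 on the plus strand, had 52.44, 29.22 and 50.57 TPM, or 44.1 ± 12.9 TPM (SD, n = 3), from 4383, 6013 and 4949 counts. Mga had many more reads than Max at a like level per length, its effective length being 6147 to 6499 bases.

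**Figure D1:**
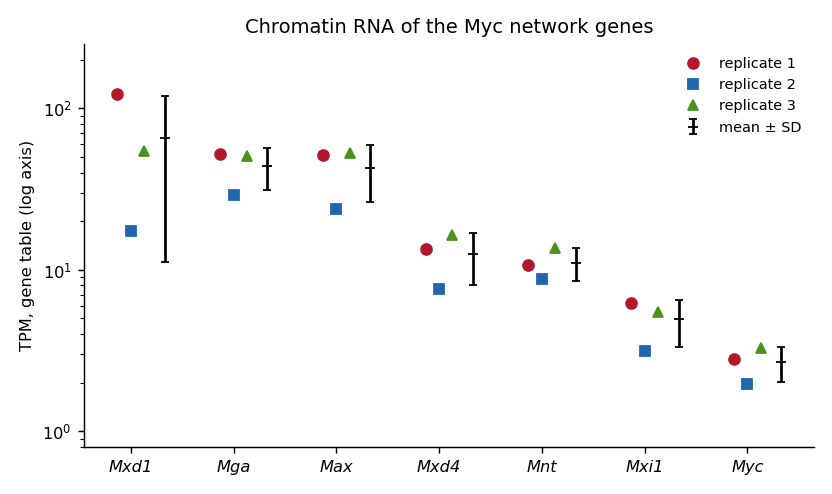
Level of each member in each library, in TPM of the gene table on a log axis, with the mean and SD of the 3 libraries. Mxd1, Mga and Max form the upper part, Mxd4 and Mnt lie near 12.5 and 11.05 TPM, and Myc is the lowest in all 3 libraries.

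The order by mean level was Mxd1, Mga, Max, Mxd4, Mnt, Mxi1, Myc. A step between neighbours was called resolved where the within-library difference had 1 sign in all 3 libraries and its mean exceeded its SD. With 3 libraries an exact sign-flip test cannot go below p = 0.25, so no test is given. Of the 6 steps, 3 were resolved. Max exceeded Mxd4 by 1.85, 1.53 and 1.63 in log2(TPM + 1), a mean of 1.67 ± 0.17 (SD, n = 3). Mnt exceeded Mxi1 by 0.70, 1.24 and 1.19, and Mxi1 exceeded Myc by 0.92, 0.48 and 0.60. Of the TPM of Mxi1, 2.90, 2.03 and 2.44 lay on the short model Mxi1-209, from 29, 44.8 and 26.5 counts. The step from Mxi1 to Myc thus rests in large part on that model, and it was not worked out without it. In the gene table the network thus fell into an upper set of 3 genes, a middle pair, then Mxi1, then Myc. Gene levels include annotated models that keep an intron, described below. The coding model Mxd1-201 had a mean of 10.1 TPM and Mnt-201 of 9.90 TPM. Max-202 and Max-201 had 5.71 and 3.30 TPM, and Mxd4-201 had 4.57 TPM. Of Mga, the coding models Mga-204, Mga-201 and Mga-215 had 9.12, 6.68 and 6.07 TPM. Together these exceeded the coding models of each of the other genes just named. On coding models Mxd1 and Max thus did not stand clear of Mnt, while Mga did. The steps were not worked out for coding models alone, and these levels are those of the first quantification. In the second quantification the middle pair was resolved, with Mxd4 minus Mnt at -1.30 ± 0.27 (SD, n = 3).

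Within the upper set and the middle pair the order was not resolved in the gene table. Mxd1 minus Mga was 1.22, -0.72 and 0.10 in log2(TPM + 1), a mean of 0.20 ± 0.97 (SD, n = 3), and without replicate 1 the mean was -0.31. Mga minus Max was 0.04, 0.28 and -0.07, with a mean of 0.09 that became -0.01 without replicate 2. Mxd4 minus Mnt was 0.30, -0.18 and 0.25, and without replicate 2 it was 0.27 with the same sign in both remaining libraries. Mxd1 was the highest member in replicates 1 and 3 and ranked 3 in replicate 2, behind Mga and Max.

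Mxd1 was the member that differed most between libraries. On the protein-coding scale it had 516, 104 and 215 TPM, a range of 2.30 on the log2(TPM + 1) scale between replicates 1 and 2. This was the only one of 7 members with a range of at least 1. That size was reached by 13.5% of the 9345 detected protein-coding genes, so the members' count is near the background share. The SD of Mxd1 over the libraries lay at percentile 99.6 of those genes. Replicate 1 had the fewest total counts of the 3 libraries and the most Mxd1 counts, 4512 against 1548 and 2311. The range was 1.04 without replicate 1, 1.26 without replicate 2 and 2.30 without replicate 3. Starting RNA was also highest in replicate 1 and lowest in replicate 2, and its part in the Mxd1 values was not tested.

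The other 6 members had ranges under 1 on the same scale. Myc had 11.7, 11.8 and 12.9 protein-coding-scaled TPM and a log2 range of 0.13, its SD at percentile 6.50 of the detected genes. That range is narrower than the counting intervals of its reads. It was 0.33 with TMM scaling, 0.39 with DESeq2 size factors and 0.27 in the second quantification, where the range of Mga was smaller, at 0.11, 0.12 and 0.097. Which of these 6 members varied least therefore depended on the scaling. Mnt had a range of 0.27, Mga of 0.32, Mxi1 of 0.45, Mxd4 of 0.50 and Max of 0.57, against a median of 0.52 over all detected protein-coding genes. Max and Mxd4 were lowest in replicate 2, with deviations of -0.37 and -0.26 from their own means. In the TPM as deposited, their ranges were 1.12 and 1.02, so the scaling decided whether they reached a range of 1.

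**Figure D2:**
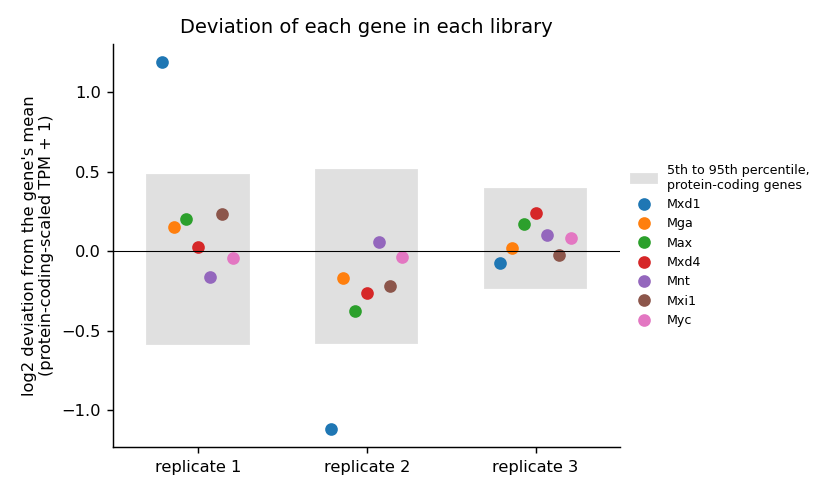
Deviation of each member from its own mean over the 3 libraries, in log2 of protein-coding-scaled TPM + 1, with grey bars for the 5th to 95th percentile of 9345 protein-coding genes in each library. Mxd1 lies above the bar in replicate 1, at 1.19, and below it in replicate 2, at -1.12, while the other 6 members lie inside the bars in every library.

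The genes whose pattern over the 3 libraries was nearest to that of Mxd1, by Euclidean distance of centred log2 values among 6878 protein-coding genes with a mean of at least 5 TPM, were Gm28048, Slc2a6 and Ppp1r15a. Gm28048 is tagged in the annotation as an overlapping locus, so its reads may belong to another gene. Slc2a6, of the glucose transporter family, had 17.89, 2.65 and 7.57 TPM at a distance of 0.129. Ppp1r15a, which encodes a regulatory subunit of protein phosphatase 1 induced by stress, had 235, 32.2 and 91.5 TPM at a distance of 0.134. All of these were highest in replicate 1 and lowest in replicate 2, which follows from choosing them by nearness to Mxd1. For Myc the nearest were Znfx1, Nudcd3 and Etfdh, and for Mnt they were Srrm2, Dctn5 and Rnpep. With only 3 libraries, many genes have near patterns, and likeness is a description.

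Set against Myc, the summed level of the repressors followed Mxd1. The TPM ratio of Mxd1, Mxd4, Mxi1 and Mnt together to Myc was 54.9, 18.8 and 27.6 in replicates 1, 2 and 3. With Mxd1 left out, a choice made after its values were seen, the ratio was 10.8, 9.93 and 10.9, a mean of 10.6 ± 0.552 (SD, n = 3). Mxd1 alone over Myc was 44.1, 8.82 and 16.7. The ratio of the other 3 repressors to Myc in the second quantification of the same libraries was 9.96, 11.2 and 13.8. These are ratios of RNA on chromatin over all annotated models, including those that keep an intron, and protein was not measured.

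The transcript tables divide each gene's TPM among its annotated models, including models that keep an intron. Of the 6 members with an annotated retained-intron model, 3 (Mxd1, Max and Mxd4) had at least 50% of their TPM on such models, against 46.2% of the 6170 protein-coding genes that have one. The members' count is near that background share. Over those 6170 genes the median share was 47.8%. By percentile of this share Mxd1 was at 94.3, Mxd4 at 64.3, Max at 60.4, Mga at 36.2, Mxi1 at 5.17 and Mnt at 4.86. In the first quantification Mxd1 thus stood high, and Mnt and Mxi1 low, in this distribution. The percentiles were not worked out for the second quantification, where the shares were 53.1% for Mxd1, 42.3% for Mnt and 6.05% for Mxi1. Myc has 8 models, all annotated as protein coding, so no retained-intron share can be given for it. Myc-201 and Myc-205 have identical sequences and cannot be separated.

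The exon and intron boundaries that these models leave unspliced are shown, since they mark where the model departs from the coding transcript. Lower case is the end of the exon and capitals are the first 18 bases of the intron, written 5′ to 3′ on the gene's strand from the GENCODE M21 transcripts (mm10).
Mxd1-204: caccagtagcagGTAACTGTTCAATGTTCC
Mxd4-204: agaaaagcacagGTAAGTGGTACCCCCATT
Max-203: gGTGAGTTTATTGACAAAG
Mga-210: tttgaatcaaagGTATGGTTGTAATGATCA
The Mxd1 boundary is the end of exon 2 of the coding model Mxd1-201, at chr6:86668520-86668549 on the minus strand. The Mxd4 boundary is the end of exon 3 of Mxd4-201, at chr5:34184296-34184325 on the minus strand. Max-203 begins with the last base of exon 2 of Max-201, at chr12:76953151-76953169 on the minus strand. The Mga boundary ends exon 3 of Mga-201, at chr2:119917362-119917391 on the plus strand. Each intron opens with GT, the usual start of an intron.

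In Mxd1 the retained-intron model took most of the gene's TPM in every library. Mxd1-204 has 2615 bases in 2 exons, with intron 1 removed and exon 2 running on into intron 2, so that 89.3% of its bases lie outside the coding models' exons. It took 85.5%, 76.7% and 83.3% of Mxd1's TPM, or 81.8 ± 4.58% (SD, n = 3). The coding model Mxd1-201 took 14.1%, 22.7% and 16.7%. On the protein-coding scale Mxd1-204 had 441, 79.6 and 179 TPM, and Mxd1-201 had 72.6, 23.5 and 35.8. Both were highest in replicate 1 and lowest in replicate 2, with ratios between these libraries of 5.55 for Mxd1-204 and 3.09 for Mxd1-201. Further along the same intron, on the same strand, lies Gm44292 (chr6:86663188-86665551), a model of the annotation's TEC class, with 254, 37.9 and 101 TPM on this scale and a ratio of 6.70. The intronic features therefore differed more between replicates 1 and 2 than the spliced coding model did, as values of single libraries with no test.

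In Max and Mxd4 an intronic model likewise had the highest share of TPM in the first quantification. Max-203, a single stretch of 659 bases with 99.8% of its bases outside coding exons, took 49.4%, 57.1% and 54.7% of Max's TPM. Max-207, a processed transcript from the preceding intron that ends in an exon, took 24.1 ± 0.902% (SD, n = 3). The coding models Max-202 and Max-201 took 13.1 ± 1.92% and 7.57 ± 1.41% (SD, n = 3 each). Models that lie mostly outside coding exons thus held 77.8 ± 3.56% of Max's TPM (SD, n = 3). The same models held 55.3 ± 4.12% in the second quantification (SD, n = 3). In expected counts the coding models of Max held 48.6%. Mxd4-204, a single stretch of 4627 bases that runs from before exon 3 far into the next intron, took 58.6%, 55.5% and 53.3% of Mxd4's TPM, and the coding model Mxd4-201 took 33.3%, 38.1% and 38.5%. In the second quantification Mxd4-204 took 52.4%, 48.1% and 46.6% and Mxd4-201 took 43.2%, 49.6% and 49.1%. There the coding model was ahead in replicates 2 and 3.

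**Figure D3:**
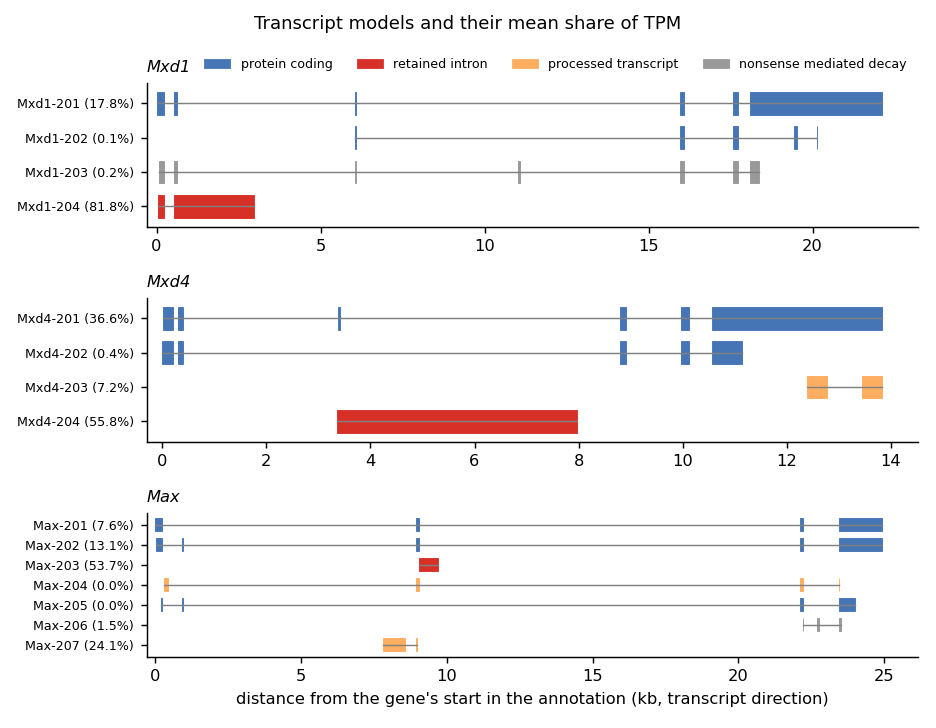
Transcript models of Mxd1, Mxd4 and Max drawn to scale against the distance from the gene's start in kb, coloured by annotated type, with the mean percent of the gene's TPM in brackets. The models with the highest shares, Mxd1-204 at 81.8%, Mxd4-204 at 55.8% and Max-203 at 53.7%, each have a block that reaches into an intron.

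In the first quantification Mga, Mnt and Mxi1 gave a different picture by annotated type. In Mga the 3 retained-intron models together took 46.4%, 28.9% and 41.9% of TPM, a mean of 39.1 ± 9.06%, and the coding models took 50.3 ± 3.61% (SD, n = 3 each). Its leading models were the coding Mga-204 at 20.6% and the retained-intron Mga-210 at 18.5%, ahead of Mga-201, Mga-215 and Mga-211 at 15.5%, 14.3% and 11.0%. The second quantification gave another order, with Mga-215 at 15.9%, Mga-210 at 13.9% and Mga-204 at 8.48%. There the coding models of Mga took 34.7% and the retained-intron models 43.8%. In expected counts the retained-intron share of Mga was 9.69%, since these models are short and TPM divides by length. The coding model Mnt-201 took 97.3%, 83.5% and 87.5% of Mnt's TPM, and the retained-intron model Mnt-203, of whose 777 bases only 37 lie outside coding exons, took 10.6 ± 7.12% (SD, n = 3). In Mxi1 the short coding model Mxi1-209 took 46.7%, 65.0% and 44.7%, Mxi1-202 took 22.7 ± 6.78% and Mxi1-201 took 10.3 ± 2.26% (SD, n = 3 each). The longest exon of Mxi1-209 lies in what is an intron of the other coding models. The low retained-intron share of Mxi1 thus rests on the annotated type of this model. The retained-intron model Mxi1-207 took 20.0%, 2.04% and 10.8%, and without replicate 1 its mean share was 6.36%.

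**Figure D4:**
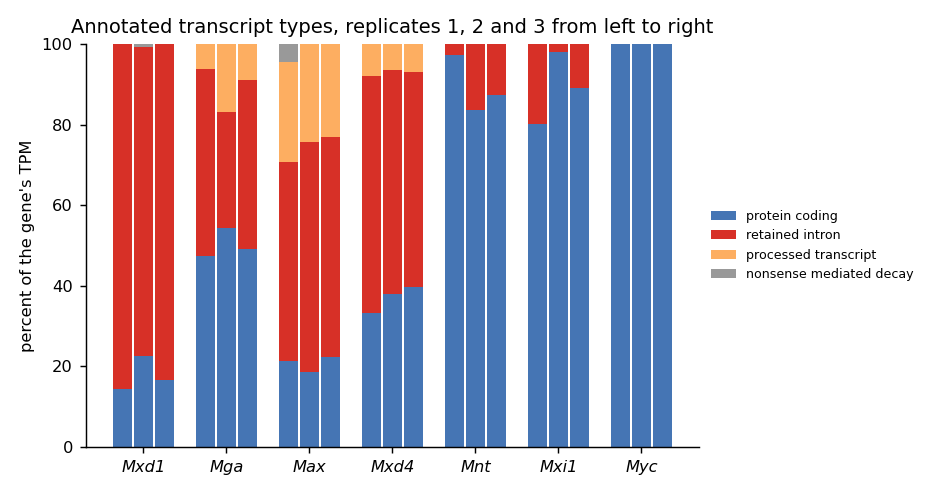
Percent of each member's TPM by annotated transcript type, in each library. Retained-intron models take most of Mxd1 in all 3 libraries and none of Myc, which has no such model, and they take 10.6% of Mnt on average.

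The retained-intron share depended on the unit and the table. For Max it was 53.7% of TPM, 31.8% of expected counts and 35.1% in the second quantification. For Mxd1 the corresponding shares were 81.8%, 71.3% and 53.1%, so this model led under each measure. For Mnt they were 10.6%, 1.48% and 42.3%, which leaves its share undetermined between the methods.

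The deposited second quantification of the same libraries gave most members a higher TPM by about the amount seen for all genes. The log2 difference in TPM + 1, second minus first, was 0.53 ± 0.14 for Mxd1, 0.58 ± 0.01 for Mga, 0.70 ± 0.07 for Max, 0.84 ± 0.21 for Mxi1 and 0.60 ± 0.22 for Myc (SD, n = 3 each). The median over the 9345 detected protein-coding genes was 0.60. Mnt had the largest differences, 1.52, 1.43 and 1.27, and was the only one of 7 members above 1 in all 3 libraries. Of the 9345 genes 14.6% were, so the members' count is near that background share. The mean of Mnt in the second quantification was 30.8 ± 4.95 TPM (SD, n = 3) against 11.05 TPM in the first. Mxd4 had nearly the same TPM in both tables, with a difference of -0.01 ± 0.06 (SD, n = 3), and so fell behind the shift of other genes. In the second quantification Mnt therefore exceeded Mxd4, with a mean log2 difference, Mxd4 minus Mnt, of -1.30, and Max was at 70.9 TPM beside Mga at 66.2 TPM. After both tables were scaled to protein-coding TPM, the difference of Mnt was 0.73 and no longer above 1. On that scale Mxd4 was at -0.75 ± 0.11 (SD, n = 3), against a median of -0.09 over the detected genes, so Mnt and Mxd4 were the members placed most differently by the tables.

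**Figure D5:**
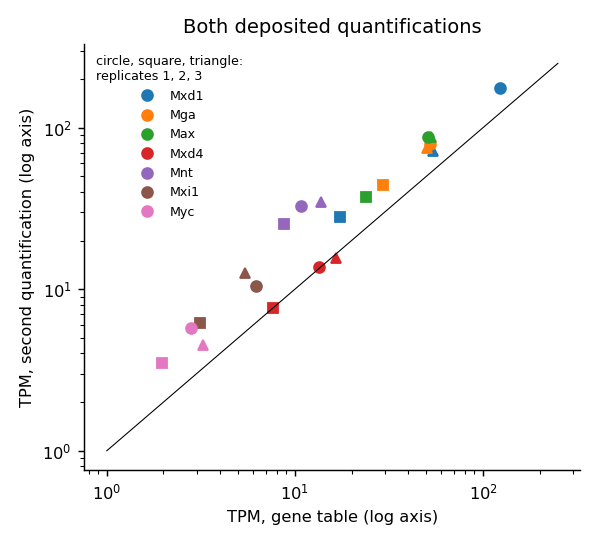
TPM of each member in the gene table against TPM in the second quantification, both on log axes, for each library. Mnt lies farthest above the line of equal values, and Mxd4 lies close to it.

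Of the 6 remaining genes of the wider network, 2 reached 1 TPM in all 3 libraries, against 42.4% of all protein-coding genes. Mlxip, which encodes the glucose-sensing factor MONDOA, had 22.15, 19.15 and 30.83 TPM. Mlx, which encodes the MAX-like partner of that factor, had 2.11, 2.07 and 3.67 TPM, close to Myc. Mxd3, a repressor known from dividing cells, had 1.14, 0.76 and 2.27 TPM and so missed the mark in replicate 2. The MYC paralogs were at or near 0: Mycl had 0, 0 and 1 counts, and Mycn had 0 counts in each library, where the floor in replicate 1 was worth 0.126 TPM. Mlxipl, which encodes the factor ChREBP, was listed at 0 in the gene tables but at 3.12 ± 0.958 TPM in the second quantification (SD, n = 3), so its level is not settled by these tables. Of the MYC paralogs, Myc had the most reads in each library.

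Genes for the proteins that MYC works with were all detected. Of 12 MYC cofactors, 12 reached 1 TPM in all libraries, with a median of 21.3 TPM. The share over all protein-coding genes, 42.4%, is the background for this list and for the lists below. Among the highest were Cdk9, the kinase that releases paused RNA polymerase II, at 84.9 ± 20.5 TPM, the acetyltransferase scaffold Trrap at 77.3 ± 14.4 TPM and the remodeller Ep400 at 36.4 ± 7.55 TPM (SD, n = 3 each). The lowest were the paired helicases Ruvbl2 at 1.69 ± 0.377 TPM and Ruvbl1 at 2.49 ± 0.891 TPM (SD, n = 3 each).

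For the repressor side, 11 of 12 corepressor genes reached 1 TPM in all libraries, with a median of 14.6 TPM. Ncor1, the nuclear receptor corepressor, was highest at 161 ± 36.5 TPM, followed by Arid4b at 40.7 ± 10.3, the SIN3 scaffold Sin3b at 37.5 ± 10.7 and the deacetylase Hdac1 at 35.6 ± 16.3 TPM (SD, n = 3 each). Sap30, at 0.987 ± 0.566 TPM (SD, n = 3), and Sap18, at 5.05 ± 3.02 TPM (SD, n = 3), were lowest. Of 10 partners of MGA in PRC1.6, 9 reached 1 TPM in all libraries, at a median of 5.38 TPM. They were led by Tfdp1, the dimer partner of E2F6, at 12.4 ± 2.38 TPM, Cbx3 at 8.71 ± 3.63 and the ubiquitin ligase Rnf2 at 8.59 ± 4.47 TPM (SD, n = 3 each). Pcgf6, which defines this Polycomb complex, had 7.13, 6.20 and 9.13 TPM. Yaf2 and Tfdp2 were lowest, at 1.11 ± 0.512 and 2.80 ± 1.23 TPM (SD, n = 3 each). Mga itself, at 44.1 TPM, was above the mean of each of these 10 partners.

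MYC protein is known for its short life, and 13 of 14 genes for its turnover reached 1 TPM in all libraries, at a median of 16.8 TPM. The ubiquitin ligase Huwe1 was at 156 ± 30.3 TPM, the deubiquitinase Usp7 at 77.1 ± 18.4, the phosphatase subunit Ppp2r5a at 42.5 ± 10.9 and the kinase Gsk3b at 38.8 ± 8.66 TPM (SD, n = 3 each). Fbxo32 was lowest, at 0.973 ± 0.157 TPM (SD, n = 3). Of 22 textbook MYC targets, 19 reached 1 TPM in all libraries, at a median of 12.5 TPM. Those that MYC is known to activate were led by the transferrin receptor gene Tfrc at 145 ± 26.2, Odc1, which encodes the first enzyme of polyamine synthesis, at 116 ± 19.3 and the nucleolar gene Gnl3 at 39.4 ± 12.6 TPM (SD, n = 3 each). Of those it is known to repress, Cdkn1a was at 106 ± 32.7 TPM and Cdkn2b at 0.567 ± 0.481 TPM (SD, n = 3 each). Ccnd2 was lowest in the gene table, at 0.417 ± 0.214 TPM (SD, n = 3), but had 11.7, 2.77 and 2.75 TPM in the second quantification, so its level is not settled. Levels at 1 time say nothing of which of these genes MYC acts on here.

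Several annotated RNAs share ground with the members. Pvt1, the long non-coding RNA downstream of Myc on the same strand, had 5.13, 2.80 and 4.36 TPM, above Myc in each library. Gm47218, inside Max on the same strand, had 19.99, 9.70 and 18.06 TPM. On the strand opposite to Mxi1, AC133451.2 had 7.21, 4.09 and 6.76 TPM, each above the Mxi1 value of the same library, and Gm10197 was at 0 counts. Gm42846, antisense to Mxd4, had 0.52, 0.94 and 1.37 TPM. In replicate 1 this was below the floor of 3 counts, worth 0.710 TPM, and the second quantification gave 0 in every library. Whether the counting used strand is not given in the sources used here, so reads of a member and an overlapping gene may not have been told apart.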

How the data were processed

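Chromatin RNA of 3 libraries was described by 3 tables each. The gene table holds expected counts, TPM and effective lengths, per the file headers. A transcript table adds the percent of each gene's TPM per isoform, as deposited by the authors, and another deposited transcript table holds estimated counts and TPM, here called the second quantification. Genome and annotation were mm10 and GENCODE M21, per the text deposited with the tables. The use of strand, like programs and versions, is not given in the sources used here. Each library is a replicate of 1 group and no test between groups was possible.

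Logarithms are log2(TPM + 1), a pseudocount that understates differences of low genes. Expected counts were rounded for edgeR 4.0.16 (TMM) and DESeq2 1.42.0 (size factors) in R 4.3.3, used only as alternative scalings. Other steps used Python 3.11.15, numpy 2.4.6, pandas 2.3.3 and scipy 1.17.1. Of these steps, only the range between libraries was tested on simulated data. No pair of libraries was identical; over 9345 genes their rank correlations were 0.92 to 0.96.

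All members and other network genes are named, with the 4 highest and 2 lowest of each further list, isoforms with a mean share of at least 10%, and for Myc, Mxd1 and Mnt the 3 genes of nearest pattern. Of isoforms under that share, Max-201 is given to complete its coding models, and of Myc's only Myc-203 and the pair that cannot be separated. Some genes that this rule takes are not reported here. Overlapping genes were chosen by position. Members and lists were chosen with earlier results of these data known.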

Additional observations from a re-analysis of the deposited data

How the results depend on the processing

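Of 127 values of differences and ranges under an alternative, 115 kept both the direction and the side of the threshold. Part of this was fixed in advance, because a range under 1 cannot reach 1 when a library is left out. The 6 differences of TMM-scaled counts per length could hardly change, because within a library these are TPM times a constant. Of 107 levels, shares and counts, which have neither, 83 stayed within the spread between libraries or, for counts, near the main count. With 3 libraries, leaving 1 out cannot move a mean by 1 SD, so such levels and shares had to stay within it. All 7 levels moved on the protein-coding scale. Of the retained-intron shares in expected counts, 1 stayed and 5 moved. On the protein-coding scale the mean levels were 278 TPM for Mxd1, 198 for Mga, 189 for Max, 55.6 for Mxd4, 50.5 for Mnt, 22.1 for Mxi1 and 12.1 for Myc. In the second quantification they were 66.2 for Mga, 70.9 for Max, 30.8 for Mnt, 9.70 for Mxi1 and 4.58 for Myc. There Mga minus Max turned to -0.043 and Mxd4 minus Mnt to -1.30 (log2). With deposited TPM the range over libraries was 1.12 for Max and 1.02 for Mxd4.

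Retained-intron shares in the second quantification were 53.1% for Mxd1, 43.8% for Mga, 35.1% for Max, 49.1% for Mxd4 and 42.3% for Mnt. In expected counts they were 71.3% for Mxd1, 9.69% for Mga, 31.8% for Max, 64.0% for Mxd4 and 1.48% for Mnt. The second over the first quantification, both scaled to protein-coding TPM, was -0.21 for Mxd1, -0.16 for Mga, -0.034 for Max and 0.73 for Mnt (log2). At 5 TPM, 2 PRC1.6 partners and 1 other network gene passed, and 4 other network genes passed 1 TPM in the second quantification. The cause of these differences was not tested.

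Leaving out 1 library moved Mxd1 minus Mga between -0.31 and 0.66, Mga minus Max between -0.013 and 0.16, Mxd4 minus Mnt between 0.036 and 0.27, and the second over the first quantification of Mxd4 between -0.042 and 0.020. Leave-one-out for ranges, for counts and for the ratio of quantifications was added after the data were seen. Of 105 deviations of single members in single libraries under other scalings, 83 moved by less than 1 SD and 22 by more. Of 35 coding shares, 26 moved by less than 1 SD or not at all, and those with 1 library left out could not do otherwise. In the second quantification 2 stayed and 5 moved, and in expected counts 3 stayed and 4 moved. Myc, fixed at 100% by its models, is among those that stayed. No paired analysis was possible because there is 1 group. Depth limits Myc most, with 55 to 95 counts a library.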
